A study of Mus musculus with 15 samples.

Results

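The blood-brain barrier genes examined here were 10 genes of the 55401 in the count files, chosen by name and matched to the GENCODE vM25 annotation. They encode junction and adhesion proteins (Cldn5, Pecam1, Cdh5), growth factor receptors (Flt1, Kdr, Tek), transporters (Slc2a1, Abcb1a, Slco1a4) and a transcription factor (Sox17). RNA-seq counts came from the hippocampi of 15 female mice aged 18 to 20 months. WT mice were negative littermates, labelled Tg2576 -/-, and 4 of them received vehicle and 4 received DHA. Tg2576 mice, labelled Tg2576 +/+, carry human APP with the Swedish mutation under the prion promoter, and 4 of them received vehicle and 3 received DHA. DHA (docosahexaenoic acid, an omega-3 fatty acid) was given by the intragastric route every day at 450 mg/kg for 5 weeks, diluted in sesame oil. Vehicle mice received the oil alone, so every group was exposed to sesame oil. The transgene is expressed broadly in neurons and is not targeted to vessels.

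Brain capillaries are lined by endothelial cells that are sealed by tight junctions and that move nutrients, drugs and hormones through dedicated carriers. VEGF and angiopoietins act on receptor tyrosine kinases of these cells, and WNT7A and WNT7B from neural cells, acting through beta-catenin, induce and maintain the barrier in the central nervous system. Barrier leakage and altered transport are widely studied in mouse models of amyloid deposition. In bulk hippocampal RNA, fewer endothelial cells and less RNA per cell cannot be told apart.

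Total counts ranged from 17372864 to 46596489 per mouse, with a median of 25645977. App, which can collect reads of the human transgene, lay between 1570 and 1790 CPM in WT animals and between 2080 and 2790 CPM in Tg2576 animals, without overlap. Summed markers of choroid plexus varied between dissections, from 63.7 to 5860 CPM over all mice and from 3140 to 5180 CPM in Tg2576 DHA mice, which contribute to each DHA comparison in Tg2576 mice and to genotype under DHA. These markers had an r of -0.07 with the shared level of the 10 genes (defined further on), and their part in these comparisons was not tested. The 9 markers of hippocampal neurons summed to between 2870 and 3360 CPM in every mouse. In Tg2576 mice over both treatments, 8 of these 9 had negative log2 fold changes (median -0.10), beside 9974 of 19536 tested genes (median -0.004). Of the 9, 3 were called lower, beside 3.85% of all genes called in either direction. These were Prox1 (-0.27), Wfs1 (-0.27) and Rbfox3 (-0.17), with edgeR adjusted p = 0.238, 0.0994 and 0.252. The call of Wfs1 was kept in 15 of 15 omissions of 1 mouse, that of Prox1 in 6 and that of Rbfox3 in 4. Under vehicle, Prox1 was called lower in Tg2576 than in WT mice (means of 64.1 and 88.0 CPM), in 14 of 15 omissions. Under DHA, Wfs1 was called lower (169 and 222 CPM), in 15 of 15. With DHA in WT mice, Wfs1 was called higher (179 to 222 CPM, 14 of 15 omissions) and Prox1 lower (88.0 to 68.3 CPM, 8 of 15). The part of these markers in the differences of other genes was not tested. CPM are read counts scaled by library size and TMM factors, which set library composition on a common scale.

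All 10 genes passed the filter on low counts, with a smallest count of 51 for Sox17 in 1 mouse. Their summed level ranged from 217 to 293 CPM over the 15 mice, with group means of 261 CPM (vehicle) and 252 CPM (DHA) in WT mice and of 271 CPM (vehicle) and 249 CPM (DHA) in Tg2576 mice. The ranges of the 4 groups overlapped. On the scale of RPKM (CPM divided by the exon length in kilobases), which allows levels of different genes to be compared, Cldn5 was highest with a mean of 23.9 and Slc2a1 followed with 22.3. Cldn5 lay above Slc2a1 in 9 of 15 mice, so these neighbours were not separated. Slc2a1 exceeded the next gene, Flt1, by 5.5-fold, and did so in 15 of 15 mice. The remaining order of mean RPKM was Flt1 (4.06), Slco1a4 (3.77), Abcb1a (3.22), Pecam1 (2.5), Cdh5 (2.19), Tek (1.78), Kdr (1.38) and Sox17 (0.942). Flt1 exceeded Slco1a4 in 8 of 15 mice, so they were not separated either, whereas Abcb1a stood above Pecam1 and Kdr above Sox17 in all 15. The coefficient of variation of CPM over all mice ran from 12.4% for Pecam1 to 29.0% for Sox17.

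The comparisons asked whether genotype or DHA changed these genes. A gene was called changed at an unadjusted p under 0.01 in edgeR's quasi-likelihood test, the cut-off of the study, and the adjusted p (Benjamini-Hochberg over 19536 genes) is given beside it. No member was called between Tg2576 and WT mice under vehicle, where 3.09% of all genes were called, or under DHA, where 1.75% were. None was called for DHA in WT mice (1.38% of all genes) or DHA in Tg2576 mice (0.353%), for the interaction of genotype and DHA (0.829%) or for DHA over both genotypes (0.87%). At an unadjusted p under 0.05, 1 member passed in genotype under vehicle, 1 in the interaction and 0 in the other 4 of these comparisons. DESeq2 and limma-voom each called 1 member in genotype under vehicle, Slco1a4, and 0 in the other 5. Between the genotypes averaged over both treatments, 1 of 10 members was called, Slco1a4, which was higher in Tg2576 mice, beside 3.85% of all genes. In none of the pairwise comparisons did a member's groups separate without overlap, which 5.16% of all genes did between genotypes under vehicle, 8.56% between genotypes under DHA, 5.02% with DHA in WT mice and 3.21% with DHA in Tg2576 mice. A count of 0 or 1 among 10 genes does not stand apart from these shares.

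**Figure D1:**
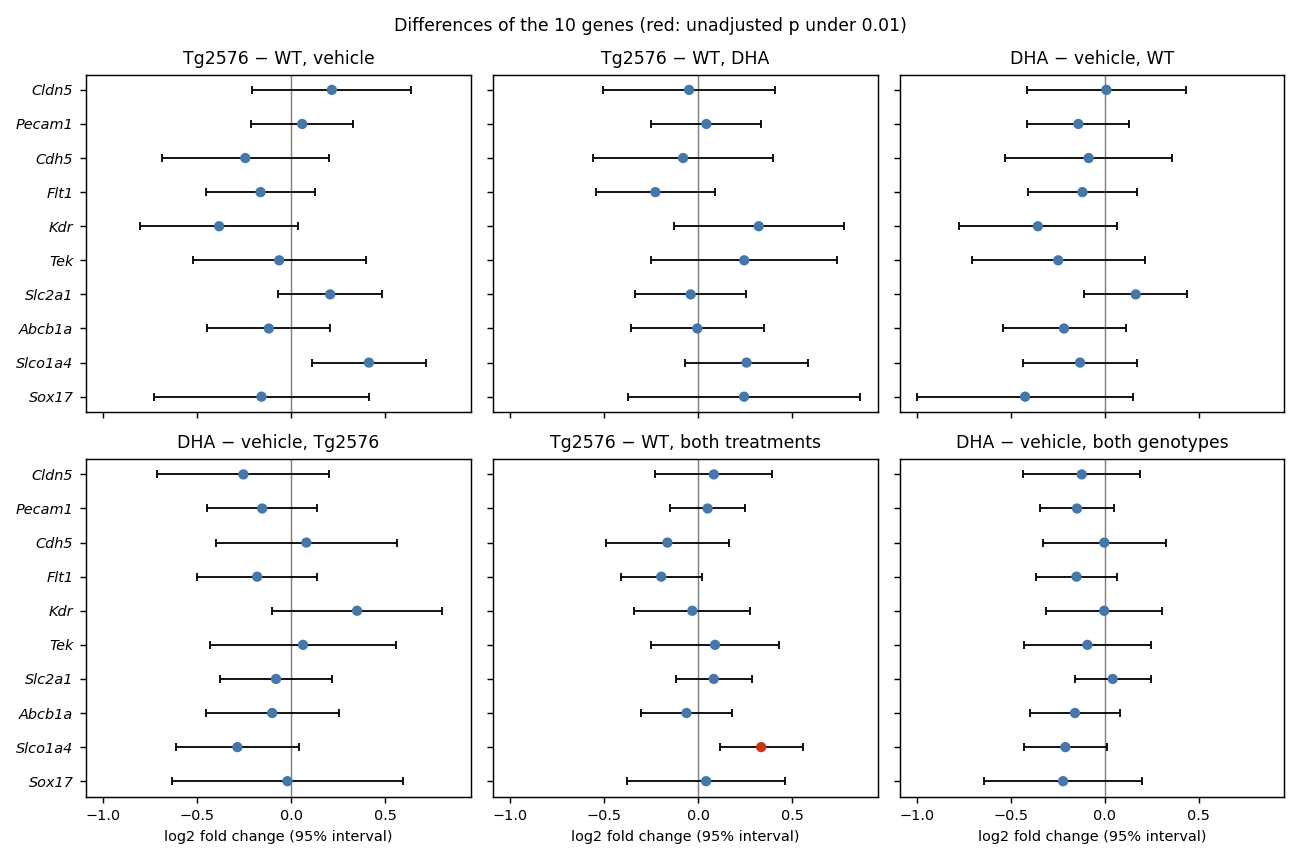
Log2 fold changes (x axis) of the 10 genes (y axis) with 95% intervals in 6 comparisons, from edgeR; red marks an unadjusted p under 0.01. Slco1a4 between genotypes over both treatments is the 1 red point, at 0.33, and the other intervals lie between -1.0 and 0.86.

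The junction protein claudin-5, encoded by Cldn5 (ENSMUSG00000041378.2, chromosome 16, 18776847 to 18778262, plus strand, GRCm38), is the main claudin of brain endothelial tight junctions. Its level was 30.5, 35.6, 36.4 and 27.9 CPM in WT vehicle mice 1 to 4, and 33.5, 25.9, 30.6 and 41.2 CPM in WT DHA mice. Tg2576 vehicle mice 1 to 4 had 24.6, 32.3, 47.6 and 46.5 CPM, and Tg2576 DHA mice 40.3, 29.1 and 25.6 CPM. The lowest and the highest of the 15 values both belonged to the Tg2576 vehicle group, and all 4 groups overlapped. Under vehicle, Tg2576 mice differed from WT mice by a log2 fold change of 0.21, with a 95% interval from -0.21 to 0.64 (edgeR, adjusted p = 0.742). DHA in Tg2576 mice gave -0.26 with an interval from -0.71 to 0.20 (edgeR, adjusted p = 0.999).

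Pecam1 (ENSMUSG00000020717.19, chromosome 11, 106654217 to 106750628, minus strand) encodes CD31, an adhesion molecule at endothelial contacts that is also found on platelets and leukocytes. It read 15.5, 19.0, 15.8 and 13.8 CPM in WT vehicle mice and 15.4, 15.8, 12.4 and 14.4 CPM in WT DHA mice. Values of 13.9, 17.1, 19.5 and 16.1 CPM in Tg2576 vehicle mice and of 14.5, 16.3 and 14 CPM in Tg2576 DHA mice spanned the same range. It had the narrowest interval between genotypes over both treatments among the 10 genes, -0.15 to 0.25 around 0.05 (edgeR, adjusted p = 0.902).

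VE-cadherin, the adherens junction protein encoded by Cdh5 (ENSMUSG00000031871.9, chromosome 8, 104101625 to 104144511, plus strand), holds neighbouring endothelial cells together. In WT mice the values were 12.1, 11, 9.8 and 7.1 CPM under vehicle and 8.98, 11.2, 9.93 and 7.58 CPM under DHA. In Tg2576 mice they were 5.56, 11.3, 8.77 and 7.97 CPM under vehicle and 8.49, 11 and 7.2 CPM under DHA. Each group held at least 1 mouse near 11 CPM, and Tg2576 vehicle mouse 1 was the lowest of all 15. Between the genotypes over both treatments, the log2 fold change was -0.16 with an interval from -0.49 to 0.16 (edgeR, adjusted p = 0.763).

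**Figure D2:**
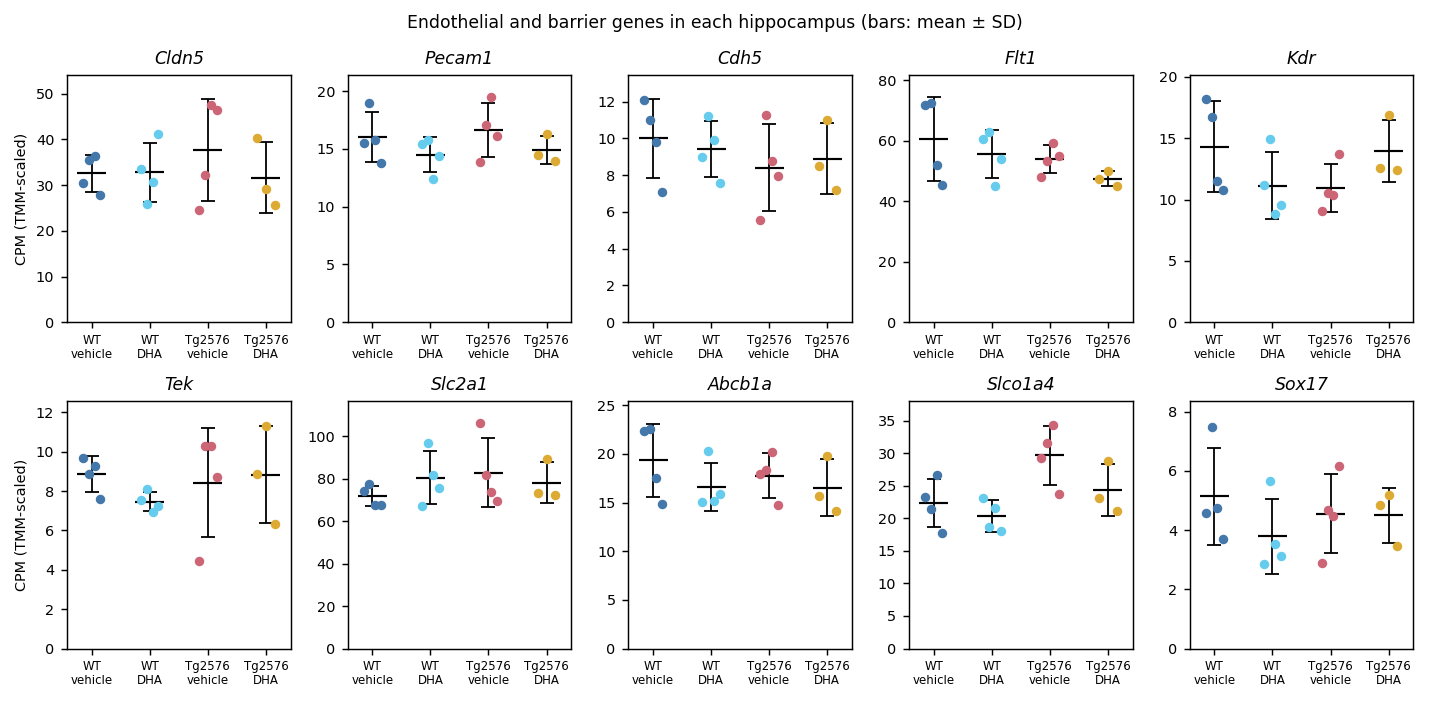
TMM-scaled CPM (y axis, from 0) of the 10 genes in each of 15 hippocampi by group (x axis); dots are mice, in replicate order within a group, and bars are the mean ± SD. The groups overlap in every panel, and Slco1a4 values in Tg2576 vehicle mice (23.7 to 34.4 CPM) are shifted above WT vehicle mice (17.8 to 26.7 CPM).

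Flt1 (ENSMUSG00000029648.13, chromosome 5, 147561604 to 147726011, minus strand) encodes VEGFR1, which binds VEGF tightly and signals weakly, so that it acts largely as a decoy. Kdr (ENSMUSG00000062960.10, chromosome 5, 75932827 to 75978458, minus strand) encodes VEGFR2, the main signalling receptor of VEGF. Of 7 members with a promoter in the RefSeq table of GRCm38.p6 (300 bases, from 250 before the annotated start to 50 after), those of Flt1 and Kdr are shown because the levels of these receptors followed each other most closely between mice. They lie at chr5:147725962-147726261 and chr5:75978406-75978705 on the minus strand and are written 5′ to 3′. Capitals mark letters of 4 motifs searched on both strands, none of which contains another. The motif of the ETS family was searched as AGGAAG, that of SOX factors as ACAAT, that of TCF and LEF factors as CTTTGA and that of GATA factors as AGATAA.
Flt1: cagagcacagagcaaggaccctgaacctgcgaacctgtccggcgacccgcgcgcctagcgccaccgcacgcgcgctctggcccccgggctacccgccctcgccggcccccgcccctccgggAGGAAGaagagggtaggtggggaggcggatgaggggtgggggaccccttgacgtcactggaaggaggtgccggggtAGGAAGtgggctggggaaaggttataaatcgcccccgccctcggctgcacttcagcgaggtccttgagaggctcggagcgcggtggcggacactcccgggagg
Kdr: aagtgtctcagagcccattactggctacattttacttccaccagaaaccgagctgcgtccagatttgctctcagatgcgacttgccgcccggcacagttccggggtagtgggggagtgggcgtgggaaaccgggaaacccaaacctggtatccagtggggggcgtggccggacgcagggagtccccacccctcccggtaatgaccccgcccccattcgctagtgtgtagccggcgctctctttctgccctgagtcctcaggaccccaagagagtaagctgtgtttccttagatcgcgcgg

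The Flt1 window held AGGAAG 2 times, a motif found in 35.4% of 32851 promoters of the same length, and the Kdr window held none of the 4 motifs. Among the 7 members with a window, 3 held AGGAAG (Flt1, Abcb1a and Slco1a4), 2 held ACAAT (Tek and Slco1a4, against 31.0% of all promoters), 1 held CTTTGA (Abcb1a, 16.0%) and 1 held AGATAA (Tek, 11.2%). The window of Abcb1a began at base 8566841 of chromosome 5, far upstream of the start at 8660077 of the gene as counted, and is therefore not shown. It remains in the counts above, as 1 of the 3 windows with AGGAAG and the only 1 with CTTTGA. These 2 counts thus rest in part on a window away from the counted start.

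The level of Flt1 was 71.9, 72.5, 52.0 and 45.3 CPM in WT vehicle mice and 60.4, 62.9, 45.1 and 53.9 CPM in WT DHA mice. Tg2576 vehicle mice had 48.1, 53.4, 59.3 and 54.9 CPM, and Tg2576 DHA mice had 47.4, 49.9 and 45.1 CPM. The WT vehicle group had the widest spread, with 2 mice above 70 CPM and 2 at or below 52 CPM, and the Tg2576 DHA group the narrowest. Flt1 had a log2 fold change of -0.20 between genotypes over both treatments, with an interval from -0.41 to 0.02 (edgeR, adjusted p = 0.492).

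For Kdr, WT vehicle mice had 18.2, 16.7, 11.5 and 10.8 CPM, and WT DHA mice 11.2, 14.9, 8.79 and 9.59 CPM. Values were 9.08, 10.5, 10.4 and 13.7 CPM in Tg2576 vehicle mice, and 12.6, 16.9 and 12.4 CPM in Tg2576 DHA mice. Mean levels thus lay at 14.3 ± 3.69 (SD) and 11.1 ± 2.73 CPM without and with DHA in WT mice, and at 10.9 ± 1.97 and 14 ± 2.53 CPM in Tg2576 mice, with overlap in every pair of groups. The log2 fold change with DHA was -0.36 in WT mice (95% interval -0.78 to 0.06) and 0.35 in Tg2576 mice (-0.10 to 0.80). The difference between these responses was 0.71, with a 95% interval from 0.09 to 1.32 (edgeR, unadjusted p = 0.0271, adjusted p = 0.845), which missed the cut-off. It passed the cut-off without WT DHA mouse 2 (0.88, edgeR unadjusted p = 0.0061), which had the highest Kdr level of its group, and in no other omission of 1 mouse. Flt1, in contrast, had an interaction of -0.06 with an interval from -0.49 to 0.37.

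Tek (ENSMUSG00000006386.15, chromosome 4, 94739289 to 94874976, plus strand) encodes TIE2, the receptor of the angiopoietins, which stabilises vessels. Its values were 9.69, 8.85, 9.29 and 7.61 CPM in WT vehicle mice and 7.57, 8.08, 6.93 and 7.24 CPM in WT DHA mice. Tg2576 vehicle mice had 4.43, 10.3, 10.3 and 8.7 CPM, and Tg2576 DHA mice 8.85, 11.3 and 6.35 CPM. Tg2576 vehicle mouse 1 was again the lowest of 15, and 1 WT vehicle mouse lay within the range of WT DHA mice. DHA in WT mice gave a log2 fold change of -0.25 with an interval from -0.71 to 0.21 (edgeR, adjusted p = 0.892).

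GLUT1, the glucose carrier of the barrier that astrocytes also make, is encoded by Slc2a1 (ENSMUSG00000028645.11, chromosome 4, 119108711 to 119137983, plus strand). It measured 74.0, 77.4, 67.8 and 67.7 CPM in WT vehicle mice and 67.2, 96.9, 81.5 and 75.8 CPM in WT DHA mice. Tg2576 mice had 106, 81.5, 73.8 and 69.6 CPM under vehicle and 73.0, 89.2 and 72.3 CPM under DHA. Tg2576 vehicle mouse 1, the lowest of 15 for Cldn5, Cdh5 and Tek, was the highest for Slc2a1. Without that mouse the log2 fold change of Slc2a1 between genotypes under vehicle went from 0.21 (95% interval -0.07 to 0.48) to 0.06.

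Abcb1a (ENSMUSG00000040584.8, chromosome 5, 8660077 to 8748575, plus strand) encodes a P-glycoprotein, the efflux pump that keeps many drugs out of the brain. WT vehicle mice had 22.3, 22.6, 17.5 and 14.9 CPM, and WT DHA mice 15.1, 20.3, 15.2 and 15.9 CPM. Tg2576 vehicle mice had 17.9, 18.3, 20.2 and 14.7 CPM, and Tg2576 DHA mice 15.7, 19.8 and 14.1 CPM. Within WT DHA mice, mouse 2 stood apart from the other 3, which lay between 15.1 and 15.9 CPM. Genotype over both treatments gave a log2 fold change of -0.06 with an interval from -0.30 to 0.18, and DHA over both genotypes -0.16 with an interval from -0.40 to 0.08 (edgeR, adjusted p = 0.899 and 1.0). Its near-identical paralog Abcb1b had a mean RPKM of 0.685, against 3.22 for Abcb1a, and reads shared by both were left out of the counting.

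Slco1a4 (ENSMUSG00000030237.14, chromosome 6, 141805440 to 141856199, minus strand) encodes the organic anion transporter OATP1A4, which carries drugs, bile acids and steroid conjugates across the brain endothelium. Its promoter is shown because it was the member that differed between genotypes. The window lies at chr6:141856171-141856470 on the minus strand and held ACAAT 3 times and AGGAAG 1 time, on either strand, as marked by capitals.
Slco1a4: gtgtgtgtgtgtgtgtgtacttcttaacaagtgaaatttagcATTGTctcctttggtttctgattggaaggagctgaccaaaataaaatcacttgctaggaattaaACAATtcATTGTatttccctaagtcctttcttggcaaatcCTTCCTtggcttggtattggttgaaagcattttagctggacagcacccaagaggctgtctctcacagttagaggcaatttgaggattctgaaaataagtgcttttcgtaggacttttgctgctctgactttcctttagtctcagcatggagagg

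Slco1a4 measured 23.3, 21.5, 26.7 and 17.8 CPM in WT vehicle mice and 29.2, 31.5, 34.4 and 23.7 CPM in Tg2576 vehicle mice. Under DHA it measured 23.2, 18.6, 21.6 and 18.1 CPM in WT mice and 23.1, 28.8 and 21.1 CPM in Tg2576 mice. Under vehicle, 3 of 4 Tg2576 mice lay above the highest WT mouse, and the fourth, mouse 4, lay above 3 of the WT mice. Under DHA, 1 of 3 Tg2576 mice lay above all WT mice. The log2 fold change between genotypes was 0.41 ± 0.14 (SE) under vehicle (edgeR, unadjusted p = 0.0101, adjusted p = 0.325) and 0.26 ± 0.15 under DHA (unadjusted p = 0.113, adjusted p = 0.79). Averaged over both treatments it was 0.33 ± 0.10, with a 95% interval from 0.11 to 0.56 (edgeR, unadjusted p = 0.00528, adjusted p = 0.212), and the exact permutation test within treatments gave p = 0.0118. Slco1a4 therefore rose in Tg2576 mice at the cut-off of the study and not after adjustment. DHA in Tg2576 mice gave a log2 fold change of -0.29 with an interval from -0.61 to 0.04 (edgeR, adjusted p = 0.999), and the interaction was -0.15 with an interval from -0.60 to 0.29. The paralog Slco1a5 had a mean RPKM of 0.123, and Slco1a6 and Slco1a1 did not pass the filter on low counts.

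The call of Slco1a4 over both treatments passed in each of 7 other settings (unadjusted p from 0.00181 to 0.00602). It was lost without WT vehicle mouse 4 (log2 fold change 0.29), WT DHA mouse 2 (0.31) or mouse 4 (0.31), Tg2576 vehicle mouse 2 (0.32) or mouse 3 (0.30), or Tg2576 DHA mouse 2 (0.27). The highest unadjusted edgeR p among these was 0.0233, and the call passed in the other 9 omissions, where the log2 fold change reached 0.40.

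SOX17, encoded by Sox17 (ENSMUSG00000025902.13, chromosome 1, 4490931 to 4497354, minus strand), is a transcription factor of endothelial cells that acts in arterial identity and downstream of Wnt signalling. Levels were 4.59, 7.5, 4.76 and 3.7 CPM in WT vehicle mice and 2.86, 5.65, 3.52 and 3.12 CPM in WT DHA mice. They were 2.89, 4.69, 4.47 and 6.18 CPM in Tg2576 vehicle mice and 4.86, 5.2 and 3.45 CPM in Tg2576 DHA mice. Its 4 groups overlapped, and as the lowest of the 10 genes it had the widest intervals. The log2 fold change with DHA in WT mice was -0.42 with an interval from -1.0 to 0.15 (edgeR, adjusted p = 0.873).

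As a group, the 10 genes had a median log2 fold change of -0.09 between genotypes under vehicle and 0.02 under DHA, whereas the median of all genes tested lay within 0.01 of 0 in both. With DHA over both genotypes, 9 of 10 members had negative log2 fold changes, down to -0.22, and Slc2a1 had 0.04, with a median of -0.14 beside -0.01 for all genes. Similarly, 19 of 20 other endothelial identity genes (Tie1, Emcn, Esam, Egfl7 and others) had negative values, with a median of -0.16, and none of the 20 was called. In the same comparison 6 of 6 oligodendrocyte markers had negative values, with a median of -0.18, and Mobp, a myelin protein, was called lower (-0.28, edgeR adjusted p = 1.0); their part in the shift of the members was not tested. The genes of these lists varied together between mice, so their signs are not independent of each other.

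Among the identity genes, Ly6c1, a surface marker of brain endothelium that monocytes share, was called between genotypes under vehicle. It measured 20.4, 23.8, 15.7 and 17.2 CPM in WT vehicle mice and 28.9, 20.2, 30.9 and 35.7 CPM in Tg2576 vehicle mice, with 1 Tg2576 mouse inside the WT range. It rose by 0.58 ± 0.17 (SE) on the log2 scale (edgeR, unadjusted p = 0.00372, adjusted p = 0.25). It lost the call without WT vehicle mouse 3 (0.50) or 4 (0.53), or Tg2576 vehicle mouse 3 (0.55) or 4 (0.48), with unadjusted edgeR p up to 0.0158, and with an offset for gene length (edgeR, unadjusted p = 0.0102). The exact permutation test of Ly6c1 gave p = 0.0857. Under DHA the difference was -0.12 with an interval from -0.52 to 0.28, and the other 19 identity genes were not called in that comparison or under vehicle.

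The ligands of the VEGF receptors were examined beside them. Of 11 ligand and co-receptor genes, 10 were tested, and 1 (Vegfa) was called higher with DHA over both genotypes, beside 0.87% of all genes. Vegfa, the principal ligand of Flt1 and Kdr and made mainly by glia and neurons, measured 115, 113, 91.9 and 79.1 CPM in WT vehicle mice and 110, 156, 125 and 112 CPM in WT DHA mice. Tg2576 vehicle mice had 69.7, 70.6, 70.4 and 101 CPM, and Tg2576 DHA mice 106, 134 and 111 CPM. All 3 Tg2576 DHA mice were above all Tg2576 vehicle mice, of which mouse 4 stood apart from the other 3, and the WT groups overlapped. Vegfa rose by 0.46 ± 0.11 (SE) on the log2 scale with DHA over both genotypes (edgeR, unadjusted p = 0.000604, adjusted p = 0.735), and the exact permutation test within genotypes gave p = 0.00653. Within genotypes the rise was 0.58 in Tg2576 mice (edgeR, unadjusted p = 0.00204, adjusted p = 0.999) and the value in WT mice was 0.34 (unadjusted p = 0.0374, adjusted p = 0.834). The rise over both genotypes passed in each of 7 other settings and each of 15 omissions of 1 mouse, whereas that in Tg2576 mice was lost without Tg2576 DHA mouse 2 (0.48, edgeR unadjusted p = 0.0136).

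**Figure D3:**
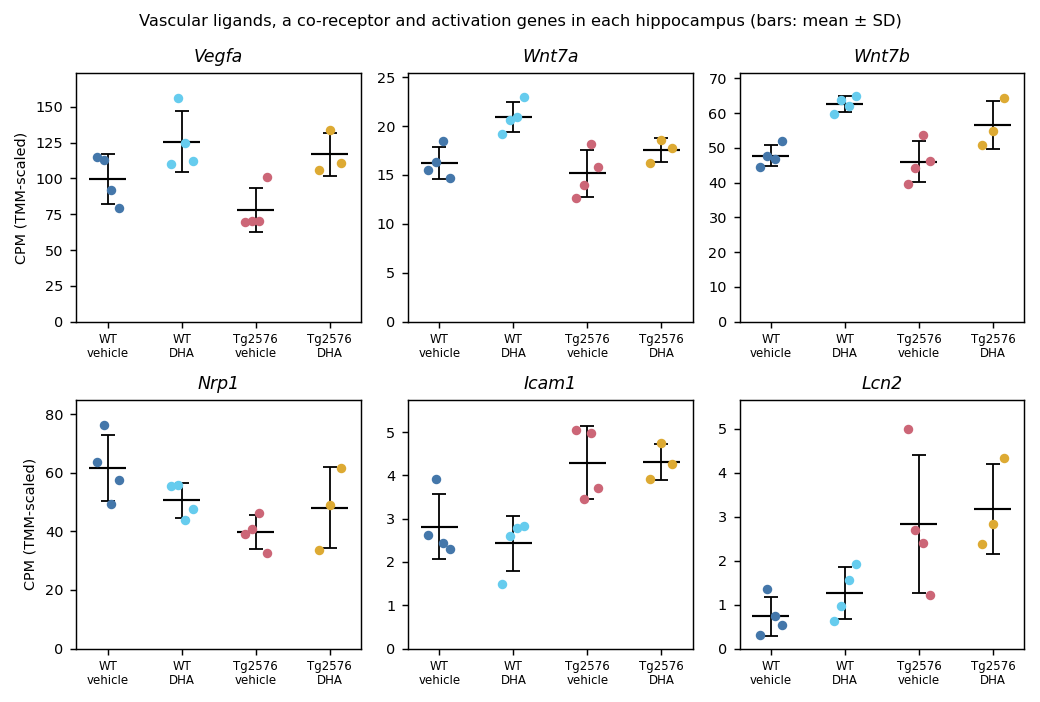
TMM-scaled CPM (y axis, from 0) of 6 genes in each of 15 hippocampi by group (x axis); dots are mice and bars are the mean ± SD. On average, Vegfa, Wnt7a and Wnt7b were higher in DHA mice, Nrp1 was lower in Tg2576 vehicle mice (32.5 to 46.4 CPM) than in WT vehicle mice (49.4 to 76.3 CPM), and Icam1 and Lcn2 were higher in Tg2576 mice.

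Nrp1, the VEGF co-receptor neuropilin-1 that neurons also express for semaphorins, measured 63.5, 76.3, 49.4 and 57.6 CPM in WT vehicle mice and 39.0, 40.9, 46.4 and 32.5 CPM in Tg2576 vehicle mice. The groups did not overlap, and Nrp1 fell by 0.63 on the log2 scale (SE 0.17; edgeR, unadjusted p = 0.00137, adjusted p = 0.198). Under DHA, WT mice had 55.6, 55.7, 43.8 and 47.6 CPM and Tg2576 mice 33.8, 48.9 and 61.5 CPM, a log2 fold change of -0.08 with an interval from -0.46 to 0.30. The call under vehicle passed in 8 of 8 other settings and 15 of 15 omissions, and the interaction of 0.56 missed the cut-off (edgeR, unadjusted p = 0.0351, adjusted p = 0.845). Nrp1 was also called lower in Tg2576 mice over both treatments, a call kept in 4 of 7 other settings and 4 of 15 omissions. The Tek ligands Angpt1 and Angpt2 were not called, with 0.35 and -0.66 with DHA over both genotypes (edgeR, adjusted p = 1.0 for both).

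Wnt signals maintain the barrier and act upstream of Cldn5, Slc2a1 and Sox17 in endothelial cells. Of 14 genes in the Wnt and beta-catenin barrier signalling list, 2 were called higher with DHA over both genotypes, beside 0.87% of all genes. They were the ligands Wnt7a and Wnt7b, and the list's median was 0.00. Within genotypes, these 2 were called with DHA in WT mice (1.38% of all genes). Of the 14, 0 were called with DHA in Tg2576 mice (0.353%) and 0 for the interaction (0.829%). Wnt7b measured 44.6, 47.7, 46.7 and 51.9 CPM in WT vehicle mice and 59.8, 63.7, 62.0 and 64.9 CPM in WT DHA mice. Tg2576 mice had 39.5, 44.3, 53.7 and 46.3 CPM under vehicle and 50.9, 54.7 and 64.2 CPM under DHA. The WT groups did not overlap, and 2 of 3 Tg2576 DHA mice lay above all Tg2576 vehicle mice. Wnt7b rose by 0.35 ± 0.07 (SE) on the log2 scale over both genotypes (edgeR, unadjusted p = 0.000147, adjusted p = 0.467), and this passed in each of 7 other settings and each of 15 omissions.

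Wnt7a measured 15.5, 16.3, 18.5 and 14.7 CPM in WT vehicle mice and 19.2, 20.6, 20.9 and 23.0 CPM in WT DHA mice, without overlap. Tg2576 mice had 12.6, 14, 18.2 and 15.8 CPM under vehicle and 16.2, 18.6 and 17.8 CPM under DHA, with overlap. Wnt7a rose by 0.29 ± 0.09 over both genotypes (edgeR, unadjusted p = 0.00429, adjusted p = 1.0). The rise missed the cut-off without WT vehicle mouse 4 (0.26), WT DHA mouse 4 (0.26) or Tg2576 DHA mouse 2 (0.27), with unadjusted edgeR p up to 0.0116. The Wnt effector Lef1 (0.30 with an interval from -0.12 to 0.71), and Plvap, a protein of leaky endothelium that Wnt signalling holds down (0.02 with an interval from -0.21 to 0.25), were not called with DHA over both genotypes. Axin2, a target of beta-catenin in many cell types, fell by 0.20 in Tg2576 mice over both treatments (edgeR, unadjusted p = 0.00613, adjusted p = 0.225). The call of Axin2 was kept in 4 of 7 other settings and 5 of 15 omissions.

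Of 13 other solute carriers and receptors of barrier transport, Tfrc, the transferrin receptor of endothelium and other cells, was called. It measured 66.1, 76.2, 51.9 and 56.9 CPM in WT vehicle mice and 51.2, 50.3, 43.0 and 40.5 CPM in WT DHA mice, without overlap. Tg2576 mice had 78.2, 64.8, 69.4 and 56.7 CPM under vehicle and 60.6, 77.9 and 58.6 CPM under DHA. Tfrc fell by 0.44 with DHA in WT mice (edgeR, unadjusted p = 0.00408, adjusted p = 0.6) and was higher by 0.51 in Tg2576 than in WT mice under DHA (edgeR, unadjusted p = 0.00234, adjusted p = 0.536), comparisons that share the WT DHA mice. The fall was lost without WT vehicle mouse 1 (-0.41) or 2 (-0.34), or WT DHA mouse 3 (-0.41) or 4 (-0.38), with unadjusted edgeR p up to 0.0198. The difference between genotypes under DHA was lost without Tg2576 DHA mouse 2 (0.37, edgeR unadjusted p = 0.0225). Tfrc was also called higher in Tg2576 mice over both treatments (0.30, edgeR adjusted p = 0.225), a call kept in 8 of 15 omissions. Mfsd2a, the carrier by which DHA enters the brain as lysophosphatidylcholine, had log2 fold changes of 0.24 with DHA in WT mice (interval -0.33 to 0.82) and -0.46 in Tg2576 mice (-1.08 to 0.17), and was not called. Tg2576 vehicle mouse 1 had 40.5 CPM of Mfsd2a, against 12.8 to 23.0 CPM in the other 14 mice. Slco1c1, a thyroid hormone carrier related to Slco1a4, had 0.07 between genotypes over both treatments (interval -0.21 to 0.35), and none of the 6 tested ABC transporters and paralogs was called in any comparison. Of 18 endothelial transcription factors and 13 partners of the tight junction, 0 and 1 were called in any comparison, the latter being F11r (JAM-A) between genotypes under DHA (0.71, edgeR unadjusted p = 0.00557, adjusted p = 0.555). F11r measured 5.19, 6.85, 12.5 and 7.92 CPM in WT DHA mice and 16.7, 10.6 and 12.4 CPM in Tg2576 DHA mice, with overlap. In the same comparison 8 of 8 choroid plexus markers had positive log2 fold changes (median 1.25), and the mouse with the highest F11r in each DHA group, WT mouse 3 and Tg2576 mouse 1, also had the highest sum of these markers in its group; their part in the call was not tested. The call of F11r was lost in 4 of 15 omissions, without WT DHA mouse 1 (0.55), 2 (0.64) or 4 (0.70) or Tg2576 DHA mouse 1 (0.51), and in a fit of only the groups compared (edgeR, unadjusted p = 0.0237).

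Of 6 tested genes of endothelial activation, Icam1 and Lcn2 were called higher in Tg2576 mice over both treatments, beside 3.85% of all genes. Icam1, a leukocyte adhesion molecule of activated endothelium and glia, measured 2.63, 3.92, 2.43 and 2.29 CPM in WT vehicle mice and 1.5, 2.6, 2.79 and 2.83 CPM in WT DHA mice. It measured 5.05, 3.46, 4.98 and 3.7 CPM in Tg2576 vehicle mice and 3.92, 4.76 and 4.26 CPM in Tg2576 DHA mice, so that 1 WT mouse reached into the Tg2576 range. Icam1 rose by 0.72 ± 0.17 (SE) over both treatments (edgeR, unadjusted p = 0.000573, adjusted p = 0.0971). Lcn2, an iron-binding protein made by activated endothelium and astrocytes, rose by 1.67 ± 0.34 (edgeR, unadjusted p = 0.000123, adjusted p = 0.0513). Its levels were low, with counts from 14. They were 0.302 to 1.35 CPM in WT vehicle and 0.616 to 1.92 CPM in WT DHA mice. Tg2576 mice had 1.22 to 5.0 CPM under vehicle and 2.38 to 4.34 CPM under DHA, so the genotypes overlapped. Edn1, the vasoconstrictor endothelin-1, measured 0.912 to 2.47 CPM in WT vehicle and 0.517 to 1.15 CPM in WT DHA mice, and 1.2 to 2.5 CPM in Tg2576 vehicle and 0.232 to 1.33 CPM in Tg2576 DHA mice. Edn1 fell by 1.02 with DHA over both genotypes (SE 0.32; edgeR, unadjusted p = 0.00578, adjusted p = 1.0). The fall of Edn1 missed the cut-off without WT vehicle mouse 1 (-0.96) or 2 (-0.89), WT DHA mouse 2 (-1.0) or 3 (-0.94), Tg2576 vehicle mouse 1 (-0.95) or Tg2576 DHA mouse 3 (-0.80), with unadjusted edgeR p up to 0.0148.

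Gfap, an astrocyte filament, rose by 1.01 in Tg2576 mice over both treatments (edgeR, adjusted p = 0.00457). It was the 1 gene called among 7 astrocyte markers, of which 3 had positive and 4 had negative log2 fold changes (median -0.006). In the same comparison 6 of 6 microglial markers had positive log2 fold changes and 3 were called higher, beside 3.85% of all genes. Among these 3 were Csf1r with 0.29 (edgeR, adjusted p = 0.121) and Cx3cr1 with 0.32 (edgeR, adjusted p = 0.258, a call kept in 3 of 15 omissions). Summed microglial markers lay between 222 and 297 CPM in WT animals and between 243 and 388 CPM in Tg2576 animals. The part of these markers, and of the lower neuronal markers in the same comparison, in the differences of Icam1, Lcn2 and Slco1a4 was not tested. Of the neighbours of endothelial cells in the vessel wall, 11 pericyte, 7 smooth muscle and 8 fibroblast genes included none that was called in any comparison. Between genotypes over both treatments, 6 of 11, 5 of 7 and 7 of 8 of them had positive log2 fold changes. Their medians were 0.03, 0.30 and 0.59, beside -0.004 for all genes. Summed fibroblast genes varied from 47.1 to 152 CPM over all mice. Pdgfrb of pericytes had 0.03 between genotypes over both treatments (interval -0.14 to 0.20), and Rgs5 and Acta2 had 0.18 and 0.43 (edgeR, adjusted p = 0.662 and 0.63). Red blood cell genes summed to between 92.8 and 958 CPM, and none was called.

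Variation between mice of the same group was shared by most of these genes. After group means were removed from log2 CPM, 40 of 45 pairs of members had a positive Pearson r over the 15 mice, with a median of 0.47. Permutation of mice within groups and adjustment over the 45 pairs left 5 pairs at an adjusted p under 0.05 by r and 1 by Spearman's rho. Flt1 and Kdr had r = 0.84 and rho = 0.89 (permutation, adjusted p = 0.0395 and 0.0567), and r = 0.81 without the 2 mice farthest from the median. Cdh5 and Tek had r = 0.82 and rho = 0.82 (permutation, adjusted p = 0.0142 and 0.0463), and r = 0.72 without 2 mice. The other pairs were Pecam1 with Flt1 (r = 0.79), Pecam1 with Tek (r = 0.69) and Flt1 with Tek (r = 0.47), with rho of 0.73, 0.60 and 0.55 (permutation, adjusted p by r = 0.0099, 0.0395 and 0.0297, and by rho = 0.0593, 0.108 and 0.0966).

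**Figure D4:**
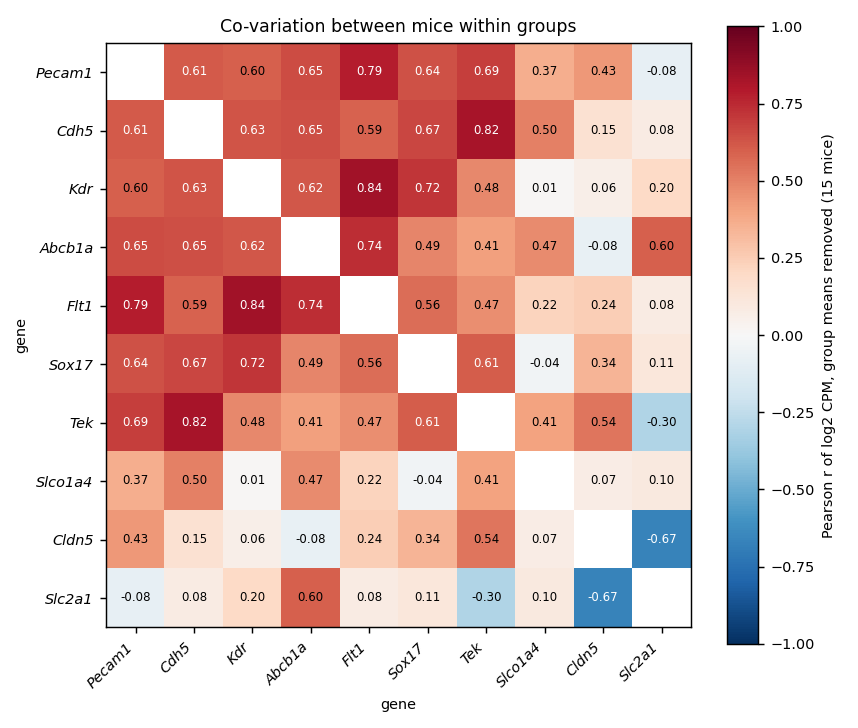
Pearson r of log2 CPM between each pair of the 10 genes (both axes) over 15 mice after removal of group means; colour runs from -1 (blue) to 1 (red) and genes are ordered by median r. Pecam1, Cdh5, Kdr, Abcb1a, Flt1, Sox17 and Tek form a positive block, and Slco1a4, Cldn5 and Slc2a1 have lower values, down to -0.67 between Cldn5 and Slc2a1.

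The median r with the other 9 members was 0.61 for Pecam1 and Cdh5, 0.60 for Kdr and Abcb1a, 0.56 for Flt1 and Sox17 and 0.48 for Tek. It was 0.22 for Slco1a4, 0.15 for Cldn5 and 0.08 for Slc2a1. Cldn5 and Slc2a1, the most abundant of the 10, had r = -0.67 and rho = -0.56 (permutation, adjusted p = 0.106 and 0.161), and r = -0.46 without Tg2576 vehicle mouse 1, an omission chosen after the values were seen. Without that mouse, 40 of 45 pairs remained positive, with a median of 0.51. The exon length of Cldn5 is 1416 bases, the shortest of the 10, and that of Flt1 is 13504, the longest. In each library the slope of log2 CPM on log2 exon length was computed over all genes. This slope had r = -0.68 with Cldn5 and 0.62 with Slc2a1 within groups, and 0.31 with the mean z-score of the 10 genes. The log2 total count had r = 0.37 with that mean. The part of transcript length and depth in the shared variation was not tested beyond these values.

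Genes outside the 10 that followed their mean z-score are given as a description. The mean of 20 other endothelial identity genes had r = 0.92 with it, and Podxl, a sialomucin of the luminal surface, was the closest of them at 0.96. Means of the artery, capillary and vein list and of the VEGF and angiopoietin list both had r = 0.86, with Bmx (0.74) and the receptor Flt4 (0.76) as their closest genes, and Erg, an ETS factor of endothelium, had 0.80. Pericyte genes gave 0.47, with Rgs5 at 0.53. Solute carriers gave 0.56, tight junction partners 0.23 and ABC transporters and paralogs 0.23, and which cells the RNA of these lists came from was not tested. Ependymal and hippocampal neuron lists gave -0.34 and -0.23, and astrocyte, microglial, oligodendrocyte and choroid plexus lists -0.16, -0.01, 0.00 and -0.07. Among all genes tested the median r was 0.02, and the central 95% ran from -0.52 to 0.55. Outside the lists, the 10 genes with the highest r were Gm5828 (0.90), Ktn1, Gm7224, Shc1, Casp8, Ptgfr, Mfsd13b, Cd300e, Gm21992 and Grk4 (0.81), picked as the highest of 19536 over 15 mice.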

How the data were processed

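RNA of 15 hippocampi was extracted with Trizol and sequenced (the labels name a SMARTER and the study's methods a TruSeq Stranded library kit), and the same flow cell and lane is named for all libraries. The deposited values are raw read counts per gene; the authors ran featureCounts 1.6.0 over exons of GENCODE vM25 (GRCm38). Per the file headers no strand or multi-mapping option was set, so reads shared by near-identical paralogs were left out and antisense overlap cannot be told apart. The submitters' processing notes also name FastQC 0.11.8 and STAR 2.6.1c. Symbols came from GENCODE M21 and matched 55141 of 55401 genes. All 199 list genes matched, and 5 (Selp, Sele, Slco1a1, Slco1a6 and Angpt4) did not pass the filter.

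Counts were fitted with edgeR 4.0.16 in R 4.3.3 (filterByExpr with a minimum count of 10, TMM, robust quasi-likelihood, 1 coefficient per group), leaving 19536 genes, TMM factors of 0.961 to 1.03 and a biological coefficient of variation of 20.1%. The threshold was an unadjusted p of 0.01. Standard errors were derived from the estimate and its F statistic. Samples are numbered within groups and were taken as 1 mouse each, which the labels do not state, so p-values measure the spread between these samples, which may be technical. Log2 CPM used a prior count of 2. Exact two-sided permutation tests cannot go below 0.0286, for 4 against 4 mice and for 4 against 3. Co-variation used 100000 permutations within groups. In simulated data for genotype under vehicle over 19250 genes, 74.9% of genes changed by 1 on the log2 scale and 0.834% of the others passed. DESeq2 1.42.0 and limma 3.58.1 served as alternatives.

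The 10 genes and the other lists were chosen with earlier results of these data known. Genes outside the 10 were named by rule: at most 3 per list and comparison with the lowest p under the threshold, 14 partner genes whatever their p, and the 10 with the most similar pattern. Podxl, Bmx, Flt4 and Erg were named after their values were seen. The values of 1 microglial marker are not reported here.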

Additional observations from a re-analysis of the deposited data

Results flagged for a closer look

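In groups of 4 mice, the highest or lowest mouse was compared with the rest by Dixon's ratio (critical value 0.83, computed for normal values at a chance of 0.05) for the 10 genes and 33 other named genes. Of 129 groups, 9 passed, and chance passes about 1 in 20. Among the 10 genes, Abcb1a in WT DHA mice had its highest mouse, mouse 2, at 20.3 CPM (ratio 0.843). Tg2576 vehicle mice had a highest mouse apart from the others for Vegfa at 101 CPM, Mfsd2a at 40.5 CPM, Pdgfrb at 32.2 CPM, Axin2 at 30.9 CPM and Slco1a5 at 1.03 CPM. WT DHA mice had one for Slco1c1 at 58.2 CPM and Slco1a5 at 0.672 CPM, and WT vehicle mice for Lrg1, a venous and inflammatory gene, at 2.66 CPM.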

How the results depend on the processing

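Of the members' log2 fold changes over 7 comparisons, 524 of 530 values in other settings and 1037 of 1050 values without 1 mouse kept their side of the threshold, and none that was called changed sign. Uncalled values crossed 0 in 13 and 74 cases, ending between -0.15 and 0.15. The count of members called in genotype under vehicle went from 0 to 1 (Slco1a4) under DESeq2, limma-voom, library sizes without TMM, no filter on low counts and an offset for gene length, the last added after seeing the data. The p of Slco1a4 there was 0.0101 in edgeR, and 0.00299 to 0.0123 in 8 other settings. Without 1 mouse, that count ranged from 0 to 1 (1 without WT vehicle mouse 3, WT DHA mouse 1, Tg2576 vehicle mouse 4 or any Tg2576 DHA mouse). It ranged from 0 to 1 for the interaction (Kdr without WT DHA mouse 2) and from 0 to 1 for genotype over both treatments, and was 0 throughout in the other 4 comparisons.

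Replicate numbers are shared by the groups, and the main fit did not pair the mice by them. The deviations of same-numbered mice had correlations of -0.24 to 0.21 over 21 pairs, 4 of them over 0.1. Differently numbered mice were not compared in this way, so these values cannot show whether the numbers pair the mice. With a replicate block the count of members called in genotype under vehicle was 1 (Slco1a4, edgeR unadjusted p = 0.00407), and no other count of members changed.

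With 3 or 4 mice per group, a member's 95% interval in a comparison of 2 groups reached down to -1.0 on the log2 scale. This was Sox17 with DHA in WT mice, a gene with as few as 51 counts. Its interval ran from -1.0 to 0.15 around -0.42, so a missing call does not show that a gene was unchanged.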
